A study of Mus musculus with 48 samples.

Results

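The 5 genes described here, Trap1a, Rhox5, Rhox6, Rhox9 and Sct, are mouse genes known from the placenta. They were chosen by their measured values, which were high in embryonic stem cells (ESCs) induced with V580, the pair of small molecules vitamin C (Vc) and AM580, an agonist of retinoic acid receptor alpha. Their levels in V580-treated cells are therefore given as a description, with no test. All 5 were found by symbol among the 22173 genes of the stage count table and, by Ensembl ID, among the 32285 genes of the single-cell table. Only Trap1a was listed among the 13682 genes of the FPKM table, so the bulk V580 data hold values for 1 of the 5 genes.

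The study used C57BL/6 mice and a female ESC source kept on inactivated embryonic fibroblast feeders, which were removed before induction on fibronectin. Of the 48 samples in the series, 40 were used. In 8 libraries, RNA was sequenced from cells described as somatic cells of female gonads (E12.5, E13.5 and E16.5) or of P6w ovaries (6 weeks), with 2 libraries per stage. The study's methods describe depletion of germ cells by magnetic sorting for SSEA1 on E12.5 gonads. Whether E16.5 gonads were sorted in this way is not stated there. Transcripts of germ cell genes were present in all embryonic stage libraries, as given below. In 31 libraries, FPKM values (fragment counts scaled to transcript length and library depth) were given for Con (ESCs induced with neither molecule), Vc, AM580 and V580 at 24 h and 48 h, with 2 libraries each, for V580 at days 4, 6, 8 and 10 (D4, D6, D8, D10), with 3 each, and for E12.5_GC, with 3. E12.5_GC was taken from E12.5 female gonads per the labels, which do not say whether germ cells had been removed from it. The remaining sample was a droplet single-cell library of V580 cells at D6, whose barcodes carry 1 suffix, so any replicates in it cannot be told apart. No label says that libraries of a group came from separate animals or cultures, so p-values measure only the spread between these libraries.

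Trap1a encodes the tumour rejection antigen P1A, which is known from trophoblast, male germ cells and tumour lines. The Rhox genes form an X-linked cluster of reproductive homeobox genes that encode transcription factors of placenta and gonads: Rhox5 is known from extraembryonic tissues and from Sertoli and granulosa cells, and Rhox6 and Rhox9 from placenta and germ cells. Sct encodes secretin, the peptide hormone of the upper intestine that acts through the receptor Sctr and is also made in the developing brain. Several of these genes are known to be silenced by DNA methylation of their promoters in cells of the embryo proper, for which reason the promoters are shown.

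On GRCm38 (mm10, the build of the submitters' processing notes), 4 of the 5 genes lie on chromosome X. Trap1a (ENSMUSG00000051257) spans chrX:139333683-139338169 on the plus strand with 3 exon blocks, inside which the antisense transcript Platr21 overlaps it. Whether the counting used strand is not given in the sources used here, so reads of Trap1a and Platr21 cannot be told apart. Rhox5 (ENSMUSG00000095180) spans chrX:37804842-37808876 and Rhox6 (ENSMUSG00000006200) chrX:37826910-37829857, both on the plus strand and with 4 exon blocks each. Rhox9 (ENSMUSG00000068048) lies on the minus strand at chrX:37899097-37901770 with 2 exon blocks. Sct (ENSMUSG00000038580) lies on chromosome 7, on the minus strand at chr7:141278330-141279133, with 3 exon blocks.

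The promoter windows of Sct, Rhox5 and Trap1a, of 300 bases each (250 before and 50 after the RefSeq start, GRCm38.p6), show how differently the members are supplied with CpG dinucleotides, the bases that DNA methylation marks. Each is written 5′ to 3′ on the strand of its gene, with CpG in capitals. Sct is from chr7:141279084-141279383 on the minus strand, Rhox5 from chrX:37754358-37754657 and Trap1a from chrX:139333433-139333732, both on the plus strand. The Rhox5 window belongs to a RefSeq start upstream of the GENCODE gene given above.
Sct: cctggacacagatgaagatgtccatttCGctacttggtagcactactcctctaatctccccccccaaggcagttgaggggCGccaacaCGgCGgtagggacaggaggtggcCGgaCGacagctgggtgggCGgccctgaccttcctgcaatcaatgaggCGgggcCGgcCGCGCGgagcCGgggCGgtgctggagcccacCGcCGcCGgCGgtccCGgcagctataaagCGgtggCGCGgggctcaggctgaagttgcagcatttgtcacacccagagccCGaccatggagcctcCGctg
Rhox5: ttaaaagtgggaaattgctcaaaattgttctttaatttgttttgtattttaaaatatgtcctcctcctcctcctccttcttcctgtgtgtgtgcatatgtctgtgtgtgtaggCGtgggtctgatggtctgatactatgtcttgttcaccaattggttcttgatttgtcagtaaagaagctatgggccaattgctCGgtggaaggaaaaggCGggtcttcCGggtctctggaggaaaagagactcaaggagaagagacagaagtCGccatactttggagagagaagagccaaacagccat
Trap1a: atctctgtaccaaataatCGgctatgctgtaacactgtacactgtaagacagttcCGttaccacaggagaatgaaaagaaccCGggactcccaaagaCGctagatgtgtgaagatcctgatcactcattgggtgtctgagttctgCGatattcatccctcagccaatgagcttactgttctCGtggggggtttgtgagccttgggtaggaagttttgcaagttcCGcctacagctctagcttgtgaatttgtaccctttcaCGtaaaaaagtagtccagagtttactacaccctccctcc
Sct held 24 CpG with a GC content of 66.7%, and 80% of the 32841 promoter windows of RefSeq held fewer. Trap1a held 8 CpG, with 51.3% of windows holding fewer, and Rhox5 held 5, with 38% holding fewer, against a median of 7 over all windows. The ratio of observed to expected CpG was 0.721 for Sct, 0.491 for Trap1a and 0.363 for Rhox5, against a median of 0.384. Sct thus had a CpG-dense promoter, whereas Rhox5 was close to the typical window. The motif AGGTCA, repeats of which retinoic acid receptors are known to bind, was searched on both strands. It was present in 1 copy in the Sct window and in 0 copies in those of Rhox5 and Trap1a, and 16.3% of all windows held it at least once. Direct repeats of this or a closely related motif, spaced by 1, 2 or 5 bases, numbered 0 in each of these windows, and 0.588% of all windows held one.

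Rhox6 and Rhox9 share part of their sequence, which bears on values that rest on reads from it. Their coding sequences were each 681 bases long and shared an identical run of 161 bases at coding positions 167 to 327 of both genes, at chrX:37827450-37827610 in Rhox6 and chrX:37901167-37901327 in Rhox9. This run is shown because reads that fall within it cannot be assigned to either gene.
Rhox6 and Rhox9 shared run: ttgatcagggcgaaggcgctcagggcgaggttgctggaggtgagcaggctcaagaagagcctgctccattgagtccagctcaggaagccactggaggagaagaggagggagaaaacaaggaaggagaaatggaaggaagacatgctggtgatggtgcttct
Of all windows of 100 bases along the exons, 6.81% of those in Rhox6 and 2.45% of those in Rhox9 also occurred in another gene, against 0 of those in Trap1a, Rhox5 and Sct. The longest run that Rhox5 shared with Rhox6 was 15 bases and with Rhox9 14 bases. How the counting treated reads that fit both genes is not given in the sources used here, so values of Rhox6 and Rhox9 are uncertain to this extent.

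The stage libraries held 12694769 to 22259044 counted reads, and the FPKM libraries were estimated to rest on 16434000 to 28308000 fragments. The labels give lane 1 for both P6w libraries and lane 5 for all E12.5 and E13.5 libraries, so stage and lane cannot be told apart between these, while E16.5 had a library on each lane. The 2 libraries labelled E12.5 female gonads carried Y-linked transcripts, with a summed level of 9.41 to 10.5 CPM (counts scaled to the total of each library) over 4 genes, against 0 to 0.225 CPM in the other 6 stage libraries. Comparisons with E12.5 are therefore read beside those between E13.5, E16.5 and P6w, which do not use these libraries. In the V580 cells at D6, most gonadal markers were lower than in E12.5_GC. Of 19 gonadal somatic genes tested, 14 were lower and 2 higher by at least 2-fold (limma, adjusted p below 0.05). Over all genes tested, 8.11% were lower and 7.06% higher. For example, the mean FPKM of Nr5a1 was 0.0377 against 78.2, of Gata4 17.0 against 144 and of Foxl2 3.21 against 23.2.

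In the bulk treatment libraries, Trap1a was highest at 24 h and had fallen by 48 h, and it fell less in the cells that received AM580. The 2 Con_24h libraries held 159 and 174 FPKM of Trap1a and the 2 Con_48h libraries 56.4 and 57.3, with no overlap. In the absence of both molecules Trap1a thus fell by 1.53 on the log2(FPKM + 1) scale (SE 0.05, limma, adjusted p = 3.3e-12), and 5.2% of the 10644 genes tested were lower in this comparison by at least 2-fold. Markers of other cells moved in the same comparison: the summed FPKM of fibroblast feeder genes fell from 219.9 to 252.4 at Con_24h to 84.59 to 86.6 at Con_48h, and 5 of 9 tested were lower, and that of pluripotency genes fell from 4811 to 5199 to 3059 to 3193, and 7 of 13 were lower. Their part in the fall of Trap1a was not tested. In bulk libraries, fewer cells that express a gene and less of its RNA per cell cannot be told apart.

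AM580 alone was measured against Con at both times, which asks whether the retinoid moved Trap1a without vitamin C. At 24 h, the AM580 libraries held 148 and 147 FPKM of Trap1a, just below both Con libraries. This difference of -0.18 (log2, SE 0.05, limma, adjusted p = 0.0358) stayed under 2-fold, and 7.16% of genes tested were lower at this adjusted p with no fold minimum. At 48 h, the AM580 libraries held 106 and 104 FPKM, well above the 56.4 and 57.3 of Con. The log2 difference was 0.87 (SE 0.05, limma, adjusted p = 4.1e-09), again under 2-fold. A gain of this kind was common, since 25.7% of genes tested were higher with no fold minimum and 2.33% were higher by at least 2-fold. The AM580 effect at 48 h exceeded that at 24 h by 1.05 on the log2 scale (SE 0.07, limma test of the difference, adjusted p = 1.1e-07), and 35% of genes tested had a difference in either direction at this adjusted p.

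Vitamin C alone gave no detectable difference in Trap1a. The Vc_24h libraries held 174 and 155 FPKM of Trap1a and overlapped with Con_24h, with a log2 difference of -0.02 (limma, adjusted p = 0.850), where 5.98% of genes tested were lower with no fold minimum. The Vc_48h libraries held 53.545 and 54.997 FPKM, both just under Con_48h, with a log2 difference of -0.07 (limma, adjusted p = 0.469), where 6.07% of genes tested were lower. The SE of both was 0.05. The Vc effect at 48 h differed from that at 24 h by -0.05 (SE 0.07, limma, adjusted p = 0.836).

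In V580-treated cells, Trap1a followed AM580 rather than Con, as a description. The V580_24h libraries held 139 and 141 FPKM of Trap1a, the lowest of the 24 h groups, with a mean log2 difference of -0.25 from Con_24h. The V580_48h libraries held 105 and 100 FPKM, with a difference of 0.84 from Con_48h and of -0.03 from AM580_48h, with which they overlapped. The comparisons of V580_48h and of AM580_48h share the Con_48h libraries. In the comparison of V580_48h with Con_48h, 1.84% of genes tested were higher and 1.34% lower by at least 2-fold, and Trap1a, at a ratio of 1.81, was not among them. Between 24 h and 48 h the log2 change of Trap1a was -1.53 in Con, -1.58 in Vc, -0.48 in AM580 and -0.45 in V580.

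Trap1a stayed within a narrow range over the days of V580 treatment. The D4 libraries held 98.3, 99.0 and 96.2 FPKM of Trap1a, the D6 libraries 74.3, 66.5 and 69.4, the D8 libraries 78.6, 75.1 and 75.3, and the D10 libraries 90.1, 90.1 and 92.2. The lowest group was D6, and no D6 library reached the lowest of another day. The mean log2 differences were -0.48 from D4 to D6, 0.12 from D6 to D8 and 0.25 from D8 to D10. These are small beside the gap to E12.5_GC.

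E12.5_GC, the gonadal reference, held almost no Trap1a. Its 3 libraries held 0.0611, 0.217 and 0.0434 FPKM of Trap1a, which correspond to 2, 6 and 1 fragments. The other libraries held 1126 to 3841 fragments of Trap1a each. The 9 fragments give a level over the 3 libraries of 0.108 FPKM (95% Poisson interval 0.0494 to 0.205, counting error only). The D6 mean of 70.1 FPKM lay 6.01 above E12.5_GC on the log2(FPKM + 1) scale, which understates a difference from so low a level. In that comparison 7.06% of 11512 genes tested were higher and 8.11% lower in V580_D6 by at least 2-fold.

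By mean level over the libraries given here, the 13 groups ran from Con_24h (167 FPKM of Trap1a, SD 10.4) through Vc_24h (164, SD 14.1), AM580_24h (147, SD 1.02), V580_24h (140.0, SD 1.23), AM580_48h (105, SD 1.08), V580_48h (103, SD 3.24), V580_D4 (97.8, SD 1.45), V580_D10 (90.8, SD 1.18), V580_D8 (76.3, SD 1.96), V580_D6 (70.1, SD 3.91), Con_48h (56.8, SD 0.657) and Vc_48h (54.3, SD 1.03) to E12.5_GC (0.107, SD 0.0956). Libraries overlapped between neighbours in this order only for Con_24h with Vc_24h and for AM580_48h with V580_48h.

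**Figure D1:**
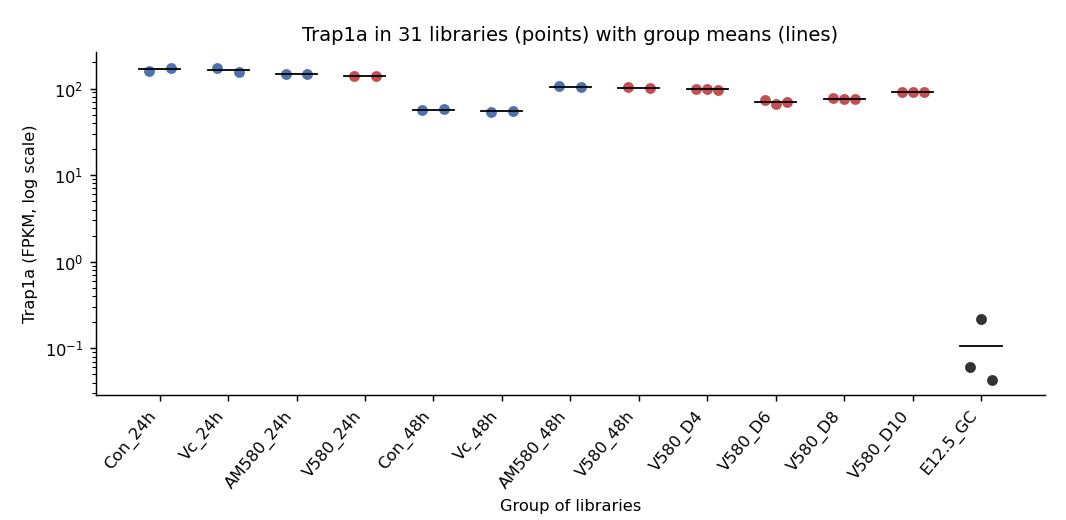
Trap1a in the 31 libraries of the FPKM table, with FPKM on a logarithmic vertical axis, groups on the horizontal axis, 1 point per library and a line at each group mean. Con_48h and Vc_48h sit between 53.5 and 57.3 FPKM, below AM580_48h and V580_48h at 100 to 106, and the 3 E12.5_GC libraries lie below 0.22 FPKM.

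Over the 13 group means of log2(FPKM + 1), the genes most like Trap1a among 9044 compared were Gpat2 (Pearson r = 0.976), Tubb6 (0.953), Pdlim7 (0.952), Sfn (0.944) and Akap12 (0.939). These correlations are descriptions over groups that share one low point, E12.5_GC. Gpat2, for example, had a mean of 0.253 FPKM in E12.5_GC, 5.53 in Con_24h and 3.23 in Con_48h.

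Trap1a was set beside other genes of the trophoblast, the placental lineage, from a list of 30, of which 11 could be tested in the treatment libraries. In AM580_48h against Con_48h, 6 of 11 were higher and 0 lower by at least 2-fold (limma, adjusted p below 0.05), with a median log2 difference of 1.10. They were Peg10 (1.95), a retrotransposon-derived gene required in placenta, Krt7 (1.28), a keratin of trophoblast, Plac1 (1.26), Eomes (1.24), a T-box factor of trophoblast stem cells, Gata2 (1.12) and Gata3 (1.10). Trap1a, at 0.87, lay below these. Over all genes tested, 2.33% were higher by at least 2-fold in this comparison. Other lists moved as much or more. Of 23 extraembryonic endoderm genes 13 were higher and 0 lower (median 1.20), and of 9 retinoic acid target genes 8 and 0 (median 2.01). Of 13 pluripotency genes, 1 was higher and 4 lower. Of the 11 trophoblast genes, Peg10 (1.86) alone passed in V580_48h against Con_48h, and the median was 0.43. There, 1.84% of all genes tested were higher by at least 2-fold. The count of trophoblast genes was 4 with a pseudocount of 0.1 and 9 with no fold minimum, and the difference between V580 and AM580 was not tested. The summed FPKM of the trophoblast list was 151.9 to 154.7 in Con_48h, 516.8 to 563.2 in AM580_48h and 485.2 to 486.4 in V580_48h. The part of these lists in the difference of Trap1a was not tested.

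Trophoblast genes were also compared between V580_D6 and E12.5_GC, where 7.06% of all genes tested were higher and 8.11% lower by at least 2-fold. In that comparison 6 of 11 trophoblast genes were higher, led by Gata2 (3.14), Wnt7b (2.89) and Gata3 (1.97), and 1 was lower, the growth inhibitor Cdkn1c (-3.42), with a median of 1.44 on the log2 scale (limma, adjusted p below 0.05). The summed FPKM of the list was 561 to 574 in V580_D6 and 601.9 to 768.2 in E12.5_GC, so the sum did not follow the count. Cdkn1c alone held means of 47.6 and 530 FPKM of these sums. The levels of defining genes were low in both: Eomes had a mean of 0.174 FPKM in V580_D6 and 0.0433 in E12.5_GC, and Plac1 5.80 and 5.16. Rhox8, a somatic gonadal member of the Rhox cluster and the only other Rhox gene of this table, differed by -2.40 in V580_D6 on the log2 scale.

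In single V580 cells at D6, all 5 genes were detected, in shares of cells that ran from more than 1 in 2 for Trap1a to fewer than 1 in 10 for Sct. Of 15412 barcodes, 15315 cells were kept, with a median of 9281 UMIs (unique molecular identifiers, counted molecules). Trap1a had 41404 UMIs in 56.3% of cells (95% exact binomial interval 55.5 to 57.0, counting error only, as for all intervals given for cells), and Rhox5 had 28209 UMIs in 33.9% (33.2 to 34.7). Rhox6 had 16829 UMIs in 19.1% (18.5 to 19.7), Rhox9 14451 in 11.9% (11.43 to 12.47) and Sct 10485 in 9.74% (9.27 to 10.2). The highest count in a cell was 72 UMIs for Trap1a, 107 for Rhox5, 362 for Rhox6, 327 for Rhox9 and 521 for Sct. The study's methods describe this sequencing as done in triplicate, but the barcodes could not be split, so the data were taken as 1 library and no test was made.

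The cells fell into 11 clusters, which were built with the 5 genes left out of the variable genes. Rhox6, Rhox9 and Sct were concentrated in cluster 8, a group of 587 cells with a median of 3404 UMIs. Its leading genes were Nrk, Fthl17a, Mt2, Sin3b and Ldoc1. Of 12 detected trophoblast markers 7 were over 2-fold higher there than in the other cells (Tfap2c, Gata3, Hand1, Ascl2, Plac1, Krt7 and Tpbpa), and the cluster is called trophoblast-like. None of these was among its 10 leading genes, and no other marker list had more than 1 marker over 2-fold. Markers of trophoblast stem cells were low in it, with 0.203 UMIs of Cdx2, 0.0373 of Elf5 and 0.00162 of Eomes per 10000, beside 4.73 of Krt7 and 1.10 of Gata3.

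Rhox6 reached 19.9 UMIs per 10000 UMIs of the trophoblast-like cluster (95% Poisson interval 19.5 to 20.2), against 0.0281 to 0.601 in the 10 other clusters. Rhox9 reached 19.6 (19.26 to 19.96), against 0.0831 to 0.389. The cluster held 3.83% of the cells, but 72.9% of all UMIs of Rhox6 and 83.7% of those of Rhox9. Sct reached 13.6 (13.3 to 13.9) with 80.0% of its UMIs, and Rhox5 6.86 (6.66 to 7.07) with 15.0%. Trap1a, at 3.80 (3.65 to 3.96) with 5.66%, was only slightly higher there than in the next cluster.

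**Figure D2:**
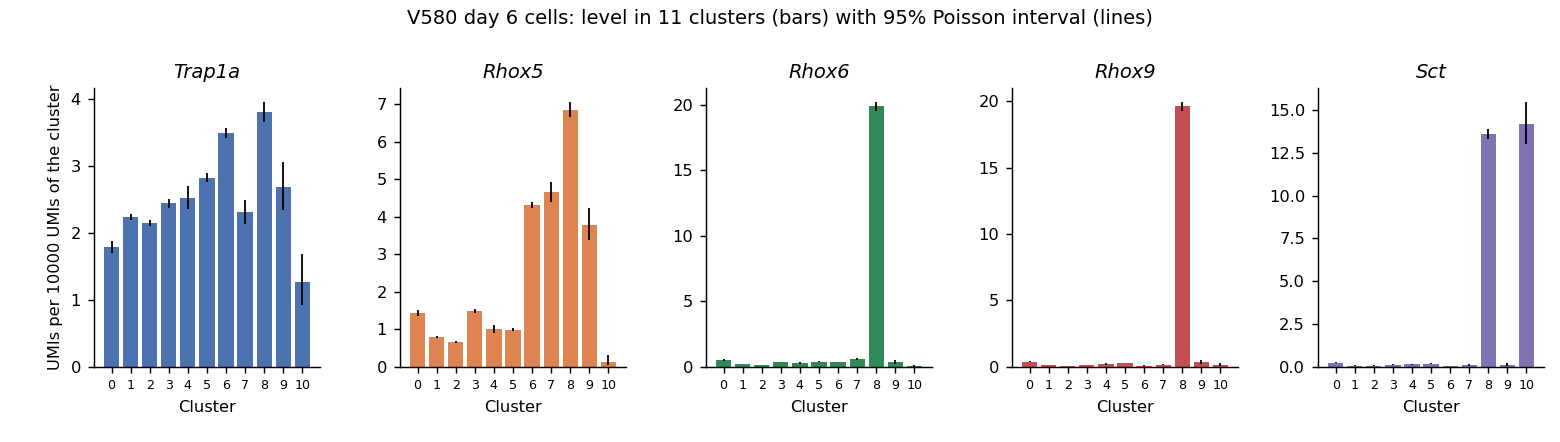
UMIs of each gene per 10000 UMIs (vertical axes, each from 0) in the 11 clusters of V580 cells at D6 (horizontal axes), with bars for levels and lines for 95% Poisson intervals. Rhox6 and Rhox9 stand at 19.9 and 19.6 in cluster 8 and at no more than 0.601 elsewhere, whereas Trap1a lies between 1.26 and 3.80 in every cluster.

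Within the trophoblast-like cluster, the 3 genes Rhox6, Rhox9 and Sct were found together in most cells. All 3 were detected in 378 of 587 cells (64.4%), any 2 in 150, 1 in 45 and none in 14. In the other clusters, 93 of 14728 cells (0.631%) held all 3. The median cell of the cluster held 5 UMIs of Rhox6, 5 of Rhox9, 2 of Sct, 2 of Rhox5 and 1 of Trap1a. At least 10 UMIs of Rhox6 were found in 231 cells of the cluster and in 46 cells elsewhere. Doublets were not removed, and their part in these counts was not tested. The clusters differ in depth, so cells were also thinned to 1000 UMIs each, which left out 739 shallower cells. After thinning, 139 of 570 cells (24.4%) of the cluster and 5 of 14006 cells (0.0357%) elsewhere held all 3 genes.

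In thinned cells, Rhox6, Rhox9, Rhox5 and Sct were detected most often in the trophoblast-like cluster and Trap1a in cluster 6. In the trophoblast-like cluster, Rhox6 was detected in 71.4% of thinned cells (88.9% unthinned), Rhox9 in 69.7% (88.8%), Rhox5 in 43.3% (74.5%), Sct in 42.6% (74.3%) and Trap1a in 24.9% (59.1%). In the other clusters Rhox6 was detected in 0 to 5.91% of thinned cells and Rhox9 in 0 to 3.81%. As a cell type in which these homeobox genes are not known, cluster 3, with 6 of 9 interstitial and 5 of 5 smooth muscle markers over 2-fold and a median of 13706 UMIs, held Rhox6 in 3.78%, and Rhox9 and Sct each in 1.18%, of thinned cells. The same cluster held Rhox5 in 10.3% and Trap1a in 19.6%. Free RNA in droplets gives UMIs in cells that do not express a gene. Cluster 3 was not shown to lack any of the 5 genes, so a share at or below these was read neither as expression nor as its absence. Its 2944 UMIs of Rhox5 lay in 35.1% of its unthinned cells, with a median of 0 per cell. They made 1.49 UMIs per 10000, against 0.787 in cluster 1 and 0.673 in cluster 2. Cluster 3 is also no guide for shallow cells. In cluster 0, with a median of 1430 UMIs and no marker of any list over 2-fold, thinned shares were 5.15% for Rhox6, 3.81% for Rhox9, 2.69% for Sct and 13.15% for Rhox5. Trap1a, at 16.06%, was below cluster 3. How much of this came from free RNA was not tested.

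**Figure D3:**
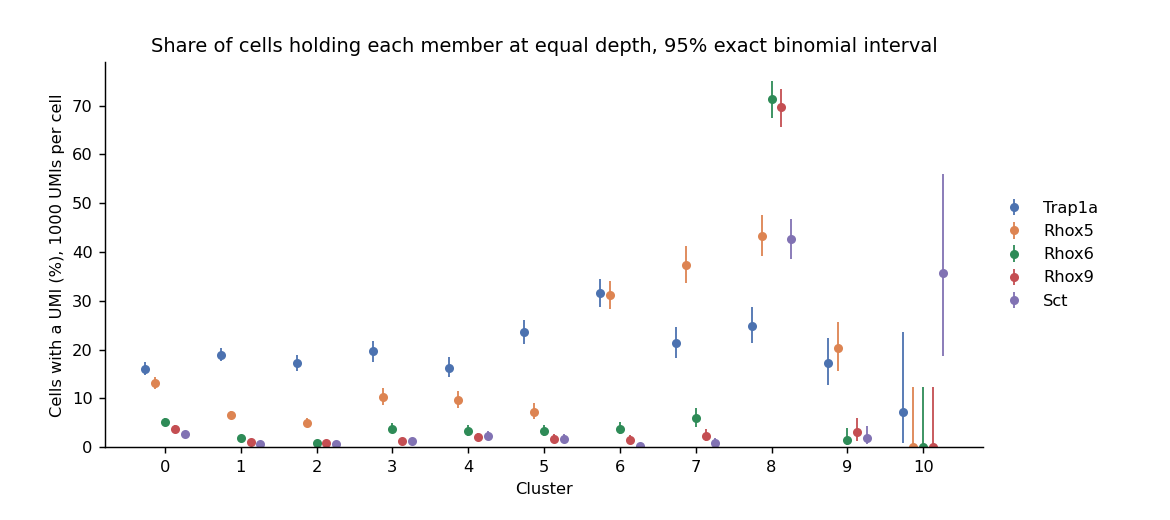
Share of cells with at least 1 UMI of each gene after thinning to 1000 UMIs per cell (vertical axis, percent), by cluster (horizontal axis), with 95% exact binomial intervals as lines. Cluster 8 has Rhox6 in 71.4% and Rhox9 in 69.7% of cells, Rhox5 reaches 37.3% in cluster 7 and 31.2% in cluster 6, and Sct reaches 35.7% in the 28 cells of cluster 10.

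Rhox5 differed from the other Rhox genes in that it was also high outside the trophoblast-like cluster. Cluster 6, with 1024 cells led by Rbp4, Col4a1 and Srgn and with 8 of 12 extraembryonic endoderm markers over 2-fold (extraembryonic endoderm-like), held 4.31 UMIs of Rhox5 per 10000 and 36.4% of all its UMIs. There Rhox5 was detected in 84.4% of cells and in 31.2% of thinned cells. Cluster 9, with 271 cells and 6 of 12 such markers (also extraembryonic endoderm-like), held 3.79 UMIs of Rhox5 per 10000 and had it in 20.2% of thinned cells. Cluster 7, with 659 cells led by Cited1, S100g and Pitx1, held 4.66 and had it in 37.3%. Clusters 9 and 7 were shallow, with medians of 2311 and 3169 UMIs, and the part of free RNA in their values was not tested. In cluster 1, led by Igfbp5, Upk3b and Itm2a, and in cluster 2, led by the cycling genes Mki67 and Cenpf, Rhox5 was at 0.787 and 0.673 UMIs per 10000.

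The ratios of the genes' UMIs also differed between clusters. Rhox9 stood at 0.986 UMIs per UMI of Rhox6 in the trophoblast-like cluster and at 0.25 to 1.0 in 9 other clusters, cluster 10 aside. Of the extraembryonic endoderm-like clusters, cluster 6 was at 0.25 and cluster 9, with 29 UMIs of each gene, at 1.0. Sct stood at 0.684 per UMI of Rhox6 in the trophoblast-like cluster and at 0.0927 to 0.481 in the 9 others, of which cluster 6 was the lowest and cluster 9 was at 0.379. Rhox5 stood at 0.345 per UMI of Rhox6 in the trophoblast-like cluster and at 2.45 to 11.5 in the 9 others.

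Sct had a further site of high level, in the smallest cluster. Cluster 10, with 28 cells led by Nefm, Sst and Tubb3 and with 6 of 6 neuron markers over 2-fold (neuron-like), held 506 UMIs of Sct, or 14.2 per 10000 (12.99 to 15.49), and Sct was detected in 71.4% of its cells (51.3 to 86.8). In thinned cells, Sct was detected in 10 of 28, or 35.7% (18.6 to 55.9). The Rhox genes were nearly absent from the same cells, with 5 UMIs of Rhox5, 1 of Rhox6 and 4 of Rhox9, and 0 of 28 thinned cells held any one of them, which allows up to 12.3% of cells with a UMI at this thinned depth (upper limit of the exact 95% interval) and does not limit the share of cells that express the gene. Elsewhere, Sct was lowest in the extraembryonic endoderm-like cluster 6, at 0.0349 per 10000. Its receptor gene Sctr was at most 0.00203 UMIs per 10000 in any cluster.

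UMIs of Trap1a were found in every cluster. No cluster was of a cell type known to lack Trap1a, and its share in most clusters lay near the 19.6% of cluster 3, so how much of it came from free RNA was not tested. Its level ran from 1.26 UMIs per 10000 in the neuron-like cluster to 3.48 in the extraembryonic endoderm-like cluster 6 and 3.80 in the trophoblast-like cluster. Thinned shares ran from 7.14% in the neuron-like cluster to 31.6% in cluster 6. Trap1a thus varied by about 3-fold over the clusters in these cells, where Rhox6 varied by far more. Of 31 other genes of the Rhox cluster, 15 were found in at least 3 cells, and none reached 1 UMI per 10000 in any cluster. The highest was Rhox4e, at 0.178 in the trophoblast-like cluster.

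In somatic cells of the gonad, the 3 Rhox genes were highest at E13.5. Rhox5 had 66 and 69 counts at E12.5 (3.38 and 3.82 CPM), 314 and 294 at E13.5 (14.1 and 14.9 CPM), 37 and 73 at E16.5 (1.76 and 4.61 CPM) and 36 and 52 at P6w (2.81 and 4.10 CPM). Both E13.5 libraries lay above all the others. Rhox5 was 2.34 higher at E13.5 than at E12.5 on the log2 scale (SE 0.35, edgeR quasi-likelihood, Benjamini-Hochberg adjusted p = 8.6e-05) and fell by 2.47 from E13.5 to E16.5 (SE 0.35, edgeR, adjusted p = 3.7e-05).

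Rhox6 had 26 and 21 counts in the libraries of E12.5, while E13.5 gave 130 and 103, E16.5 gave 36 and 47 and P6w gave 1 and 7. For Rhox9, E12.5 gave 32 and 42 counts, E13.5 gave 240 and 200, E16.5 gave 50 and 55 and P6w gave 1 and 11. Both genes thus had the same order of stages, with no overlap between E13.5 and the others or between P6w and the others. From E12.5 to E13.5, Rhox6 rose by 2.47 (SE 0.44, edgeR, adjusted p = 0.000376) and Rhox9 by 2.73 (SE 0.40, edgeR, adjusted p = 7.5e-05). From E13.5 to E16.5, Rhox6 fell by 1.51 (SE 0.41, edgeR, adjusted p = 0.00636) and Rhox9 by 2.11 (SE 0.38, edgeR, adjusted p = 0.000298). From E16.5 to P6w, Rhox6 fell by 2.70 (SE 0.61, edgeR, adjusted p = 0.00162) and Rhox9 by 2.45 (SE 0.56, edgeR, adjusted p = 0.00175). The size of these falls depended on the P6w libraries, being -1.91 and -1.58 without the first and -4.63 and -4.95 without the second, and all 4 values passed. The fall of Rhox6 from E13.5 to E16.5 no longer passed without the first E16.5 library (-1.11, edgeR, adjusted p = 0.0522) or with a gene length term per library (-0.92, edgeR, adjusted p = 0.0704).

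Against E12.5, the Rhox genes at later stages differed less. At E16.5, Rhox5 was at -0.14 (edgeR, adjusted p = 0.806), Rhox6 at 0.95 (adjusted p = 0.118) and Rhox9 at 0.62 (adjusted p = 0.266), none past the threshold. The E16.5 libraries differed here: without the first, Rhox6 passed (1.35, adjusted p = 0.0325), and without the second, Rhox5 did (-1.01, adjusted p = 0.025). Rhox5 also passed between P6w and E16.5 without the second E16.5 library (1.17, adjusted p = 0.00791), against 0.30 with it (adjusted p = 0.529). At P6w, Rhox6 was lower, with a log2 difference of -1.74 (SE 0.65, edgeR, adjusted p = 0.0353) and Rhox9 of -1.83 (SE 0.58, edgeR, adjusted p = 0.0159), whereas Rhox5 was at 0.17 (adjusted p = 0.736). Both calls were lost without the first P6w library (Rhox6 -0.95, edgeR, adjusted p = 0.279, and Rhox9 -0.96, adjusted p = 0.166), in which each gene had 1 count, and without the second P6w library they were -3.68 and -4.34. Without the second E12.5 library both were lost as well (Rhox6 -1.85, adjusted p = 0.056, and Rhox9 -1.57, adjusted p = 0.0706), and without the first, Rhox6 was (-1.64, adjusted p = 0.102).

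Sct, the hormone gene, was lowest at E16.5. It had 71 and 36 counts at E12.5 (3.64 and 1.99 CPM), 105 and 77 at E13.5 (4.72 and 3.90 CPM), 22 and 15 at E16.5 (1.04 and 0.947 CPM) and 35 and 41 at P6w (2.73 and 3.23 CPM). The E16.5 libraries lay below all others. Sct fell by 2.37 from E13.5 to E16.5 on the log2 scale (SE 0.39, edgeR, adjusted p = 0.000141) and was 1.74 higher at P6w than at E16.5 (SE 0.41, edgeR, adjusted p = 0.0023). It was also lower at E16.5 than at E12.5, with a difference of -1.43 (SE 0.40, edgeR, adjusted p = 0.0117), a call that was lost without the first E12.5 library (-0.92, edgeR, adjusted p = 0.188). The rise of Sct from E12.5 to E13.5 of 0.94 (SE 0.35, edgeR, adjusted p = 0.0405) was lost without the second E12.5 library (0.56, adjusted p = 0.334), without either E13.5 library (0.80, adjusted p = 0.165, and 1.09, adjusted p = 0.0557), without either P6w library (adjusted p = 0.0525 and 0.0579), with DESeq2 (adjusted p = 0.101) and with the gene length term (0.05, adjusted p = 0.931). Sctr had at most 3 counts in any stage library.

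Trap1a was low in the gonad and highest there at E16.5. It had 8 and 12 counts at E12.5 (0.410 and 0.664 CPM), 26 and 28 at E13.5 (1.17 and 1.42 CPM), 65 and 71 at E16.5 (3.09 and 4.48 CPM) and 0 and 25 at P6w (0 and 1.97 CPM). The 3 embryonic stages did not overlap, whereas the 2 P6w libraries lay on either side of E12.5 and E13.5. Trap1a was 2.87 higher at E16.5 than at E12.5 (SE 0.79, edgeR, adjusted p = 0.0102), which was lost without the first E12.5 library (2.57, adjusted p = 0.0726). The differences of 1.59 between E13.5 and E12.5 (edgeR, adjusted p = 0.129), 1.28 between E16.5 and E13.5 (adjusted p = 0.137) and -1.77 between P6w and E16.5 (adjusted p = 0.0607) did not pass. The last was -0.78 without the first P6w library (adjusted p = 0.274), -9.06 without the second (adjusted p = 0.000408) and -2.06 without the first E16.5 library (adjusted p = 0.0435). Without the first or the second P6w library, the difference between E13.5 and E12.5 passed (adjusted p = 0.0227 and 0.0294), as did that between E16.5 and E13.5 (adjusted p = 0.0268 and 0.0318). Each of them passed when fitted on its own stages (adjusted p = 0.0345, 0.0296 and 0.0441). At P6w against E12.5 the value of 1.10 (adjusted p = 0.321) turned on a single library, being 2.09 without the first P6w library (adjusted p = 0.0149) and -6.19 without the second (adjusted p = 0.0297). Fits without the second rest on a library with 0 counts, so their values are no bound.

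**Figure D4:**
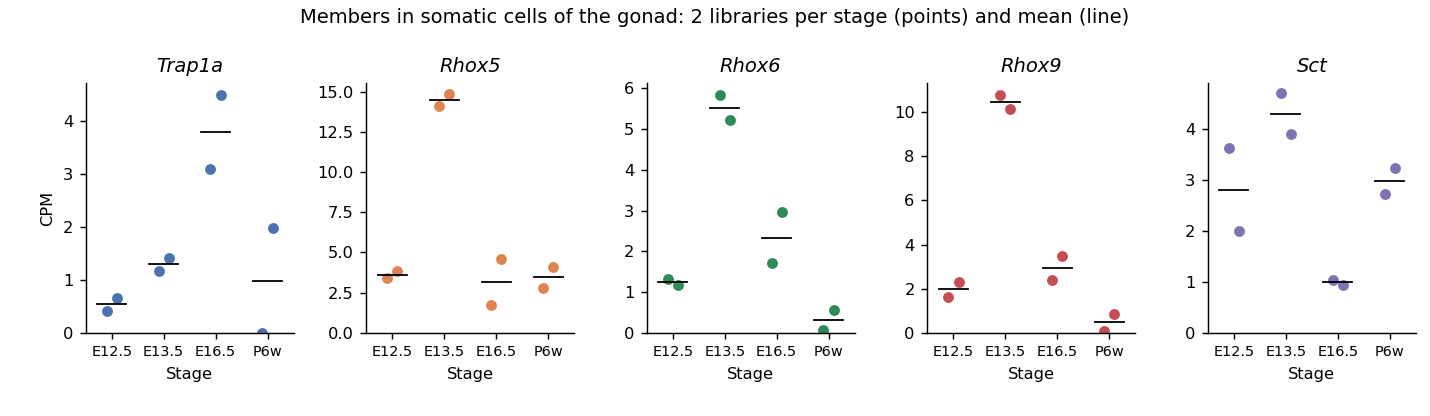
CPM of the 5 genes (vertical axes, each from 0) in somatic cells of the gonad by stage (horizontal axes), with 1 point per library and a line at the mean of 2. Rhox5, Rhox6 and Rhox9 peak at E13.5 with means of 14.5, 5.53 and 10.5 CPM, Sct is lowest at E16.5 with 0.996 CPM, and Trap1a is highest at E16.5 with 3.78 CPM.

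The shares of genes called in these comparisons were large, and the members are read against them. Of 16398 genes tested, 23.8% were higher and 22.1% lower at E13.5 than at E12.5, where 4 of the 5 members were higher and 0 lower. At E16.5 against E12.5, 20.5% were higher and 17.1% lower, with 1 member in each direction (Trap1a and Sct). At P6w against E12.5, 25.4% were higher and 27.5% lower, with 0 and 2 members. At E16.5 against E13.5, 28.7% were higher and 25.4% lower, with 0 and 4 members. At P6w against E16.5, 26.3% were higher and 29.8% lower, with 1 and 2 members. The median log2 difference of the members was 2.34, 0.62, 0.17, -2.11 and -1.77 in these 5 comparisons, in this order, against medians of all genes between -0.04 and 0.06.

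Compared per length, in RPKM (CPM divided by exon length in kilobases), Rhox5 was the highest member at E13.5, with a mean level of 19.2, followed by Sct (6.68), Rhox6 (5.47), Rhox9 (4.20) and Trap1a (1.10). At E16.5 the order was Rhox5 (4.22), Trap1a (3.21), Rhox6 (2.32), Sct (1.54) and Rhox9 (1.18). At P6w only Rhox5 (4.58) and Sct (4.62) had a mean above 1, and Rhox6 and Rhox9 were at 0.312 and 0.190. The order of members therefore changed between stages.

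Of 31 other genes of the Rhox cluster, 6 had enough counts to be tested between stages, and 5 of them were higher at E13.5 than at E12.5 and 0 lower (edgeR, adjusted p below 0.05). Rhox8, the somatic gonadal gene of the cluster, had 267 and 256 counts at E12.5 and 398 and 325 at E13.5, a difference of 0.63. With the gene length term 1 of the 6 was higher. Unlike Rhox5, Rhox6 and Rhox9, the genes Rhox1 and Rhox13 were highest at E16.5, with 117 and 148 counts and with 70 and 119 counts. From E16.5 to P6w, 5 of the 6 were lower and Rhox8 was 1.55 higher. Of 14 genes of the secretin family and its receptors, 7 were tested, and 1 was higher and 1 lower at E13.5 than at E12.5, the latter being the receptor gene Adcyap1r1 (-0.98).

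Markers of other cells moved between the stages too. Of 11 germ cell genes tested, 6 were higher at E13.5 and 0 lower than at E12.5, and 8 were lower at P6w than at E16.5. The list summed to 142 to 159 CPM in E12.5 libraries, 174 to 180 CPM in E13.5, 274 to 327 CPM in E16.5 and 40.7 CPM in both P6w libraries, and 0 of its 12 genes were at 0 in the embryonic libraries. The sum was highest at E16.5, but its genes went both ways from E13.5 to E16.5, with 5 of 11 higher and 3 lower. Dazl and Ddx4, of the germline, rose to means of 56.4 and 10.0 CPM at E16.5, as Trap1a was highest there, whereas Dppa3 and Dnd1 were highest at E13.5, like the 3 Rhox genes, with 4.11 and 23.8 CPM. Sertoli cell genes summed to 205 to 208 CPM in E12.5 libraries, 61.3 to 62.0 CPM in E13.5, 213 CPM in E16.5 and 313 to 391 CPM in P6w, so the sum was lowest where the Rhox genes were highest. The sum did not follow the count. Of 10 Sertoli cell genes tested against E12.5, 8 were lower and 1 higher at E13.5, and 7 lower and 2 higher at E16.5. Most of them were thus higher in the E12.5 libraries, which also carried Y-linked transcripts. Genes that were highest at E13.5 among the embryonic stages, like the Rhox genes, included 3 of extraembryonic endoderm and fetal liver: from E12.5 through E13.5 to E16.5 the mean CPM was 1.38, 45.3 and 0.601 for Afp, 0.663, 32.0 and 1.64 for Apoa1 and 0.237, 8.79 and 0.261 for Ttr. Of that list, 8 of 26 genes were higher and 9 lower at E13.5 than at E12.5. Red blood cell genes were higher at E13.5 in 7 of 10 cases, and their sum was highest there. The trophoblast list summed to 962 to 1062 CPM in E12.5 libraries, 804 to 811 CPM in E13.5, 723 to 897 CPM in E16.5 and 126 to 149 CPM in P6w. The part of these lists in the differences of the 5 genes was not tested.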

How the data were processed

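RNA was measured in bulk libraries and in 1 single-cell library. Per the labels and the study's methods, the authors aligned bulk reads to mm10 with HISAT2 and counted them with featureCounts, and the stage table was deposited as raw counts per gene. The FPKM values were deposited by the authors for treatments, days and E12.5_GC. The submitters' processing notes also name RSEM, and whether it made these values was not established here. UMI counts per gene and cell were deposited as made by Cell Ranger. A further count table with 10 columns that could not be matched to samples was not used, nor were 8 samples.

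The members and gene lists were chosen with earlier results of these data known. Genes were named by being a member, by the largest changes among called genes of a list or by the highest likeness to Trap1a. Rhox8, Rhox1, Rhox13, Rhox4e, Sctr, Dppa3, Dnd1 and Ttr were named after their values were seen. Stage counts were fitted in 1 model over 8 libraries with edgeR 4.0.16 (filterByExpr, TMM, quasi-likelihood, R 4.3.3), and a call is a Benjamini-Hochberg adjusted p below 0.05 over 16398 genes. FPKM values were tested with limma 3.58.1 on log2(FPKM + 1) for genes of at least 1 FPKM in at least 2 (treatments) or 3 (days) libraries, and a call also needs a 2-fold difference unless said otherwise. Low FPKM values gave the depth of each library, with 95.9 to 97.2% of them within 0.02 of whole fragments. Cells with fewer than 200 genes or over 40% mitochondrial UMIs were left out, and the rest were clustered with scanpy 1.11.5 (2000 variable genes, 20 components, 20 neighbours, Leiden resolution 0.5), without the 5 genes. Doublets were not removed. A doublet caller marked only 1 cell, too few for its calls to be used, so the share of doublets is not known. Intervals cover counting error only, at 95%. The alternatives were DESeq2 1.42.0, other scalings, filters, pseudocounts, a gene length term, a replicate block and each library left out. Replicate numbers were not taken as pairs in the main fits. The statistics were tested on simulated data.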

Additional observations from a re-analysis of the deposited data

Results flagged for a closer look

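The AM580 effect on Trap1a differed between the times by a test of the difference itself. At 24 h, AM580 libraries lay 0.18 below Con (log2 difference -0.18), and at 48 h 0.87 above, so that the effect at 48 h minus that at 24 h was 1.05 (SE 0.07, limma, adjusted p = 1.1e-07 over 10644 genes). Of the genes tested, 35% differed in either direction. Both AM580_48h libraries lay above both Con_48h libraries, and both AM580_24h libraries lay below both Con_24h libraries. Across the pseudocount, the filter, quantile normalization, the replicate block and each library left out, alternatives that were added after seeing the data, the difference stayed between 0.99 and 1.11.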

How the results depend on the processing

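Of 1579 alternative values, 1432 were classed as unchanged. For tested differences this meant the same direction and side of the threshold, and for means and untested differences staying within the replicate spread. Counts of called genes could still change by a limited factor, and values of cells had to stay within their counting interval. The differences that changed sign had not passed with all libraries, but some of them did in fits with 1 library left out, as given above. With 1 library left out, Rhox5 ranged from -1.01 to 0.46 for E16.5 against E12.5 and from -0.14 to 0.41 for P6w against E12.5. For P6w against E16.5 it ranged from -0.30 to 1.17. For P6w against E12.5, Sct ranged from -0.075 to 0.81 and Trap1a from -6.19 to 2.09. Trap1a in Vc_24h ranged from -0.11 to 0.067, and quantile normalization gave 0.017 for the latter. The number of members called with 1 library left out was 3 to 4, 0 to 3, 0 to 3, 3 to 5 and 3 to 4, in the order E13.5 against E12.5, E16.5 and P6w against E12.5, E16.5 against E13.5 and P6w against E16.5. With the replicate number as a block it was 4, 2, 2, 4 and 4, and 4, 2, 2, 4 and 3 without it. The block made Trap1a pass for P6w against E16.5 (-2.01, edgeR, adjusted p = 0.0249). Same-numbered stage libraries had correlations of their deviations from -0.0403 to 0.0673, so the numbers gave no sign of pairing there. In the FPKM libraries these correlations spread more widely in both directions. They ran from -0.424 to 0.209 for treatments (median 0.016) and from -0.428 to 0.384 for days (median 0.0288). Without the fold minimum, Trap1a passed at AM580_24h (-0.18) and AM580_48h (0.87), and trophoblast genes higher and lower at V580_48h numbered 9 and 1, against 4 higher with a pseudocount of 0.1, with which the difference of Trap1a between V580_D6 and E12.5_GC was 8.50. All genes called at 2-fold and with no fold minimum numbered 9 and 1443 (Vc_24h), 43 and 1580 (AM580_24h), 5 and 1324 (Vc_48h), 344 and 6063 (AM580_48h), 822 and 7028 (Con_48h against Con_24h), 339 and 6078 (V580_48h against Con_48h) and 1747 and 7718 (V580_D6). With a pseudocount of 0.1 they were 42, 124, 41, 664, 1410 and 670 for the first 6. At E16.5 against E12.5, 6160 genes were called, and 3814 and 3899 without an E12.5 library. The share of cells with a UMI depended on depth: with at least 1000 genes per cell it was 67.7% for Trap1a, 38.1% for Rhox5, 22.1% for Rhox6, 13.03% for Rhox9 and 11.1% for Sct, in thinned cells 19.4%, 13.2%, 5.86%, 4.57% and 3.08%, and under a mitochondrial limit of 20% it was 57.3% for Trap1a. For the other changes, the cause was not tested. With 2 libraries per group and counts down to 0, changes of Trap1a in the gonad were the least certain.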
